A study of Mus musculus with 8 samples.

Results

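The crypt stem cell genes Lgr5, Ascl2, Smoc2, Axin2, Rnf43, Znrf3, Sox9, Ephb2, Lrig1 and Cd44 were examined in RNA from mouse distal colon. They were taken by symbol, 10 of 52143 genes in the table, all 10 had a row, and all 10 passed the filter on low values, for which 4 or more samples had to reach 1 TPM, the abundance of a gene's transcripts scaled for their length and to the same total in every library. Values are log2(TPM + 1) unless TPM is named, and a difference is the SiglecXII mean minus the Control mean on that scale. The scale understates the change of genes near 1 TPM, such as Lgr5. TPM keeps no record of sequencing depth, so the counting error behind each value is unknown.

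Stem cells at the base of colonic crypts renew the epithelium, and Wnt ligands from neighbouring cells keep them in that state by letting beta-catenin enter the nucleus and act with TCF/LEF factors. Lgr5 is a receptor for R-spondins, which strengthen the Wnt signal, and Ascl2 is a transcription factor of the same cells. Axin2, Rnf43 and Znrf3 are Wnt targets that in turn weaken the signal, so their mRNA is widely read as a measure of Wnt activity, while Ephb2 positions cells along the crypt axis and Lrig1 restrains growth factor receptors in stem and progenitor cells.

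Control mice carried Villin1-Cre-ERT alone, and SiglecXII mice carried SIGLEC12-Villin1-Cre-ERT, in which human SIGLEC12 was inserted at ROSA26 behind a CAG promoter and an EGFP stop cassette flanked by loxP sites. Both groups received tamoxifen (10 mg/ml) by intraperitoneal injection on 5 days from 8 weeks of age, and colons were taken 7 days after the last dose, so tamoxifen and the recombinase were shared by both groups. The Villin1 promoter limits recombination to intestinal epithelium, whereas the RNA came from colon tissue that also held smooth muscle, as its markers show. Labels give 4 samples per group while the design text speaks of 3 mice per condition and the methods of technical replicate libraries; separate animals are not stated for each sample, and p-values therefore measure the spread between samples, which may be technical. SIGLEC12, EGFP and Cre have no row in the table, so these values hold no measure of the transgene.

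The tissue label was checked against marker lists. Epcam, a surface protein of epithelial cells, was at 10.25 to 10.66 in the 4 Control samples and 10.35 to 10.65 in the 4 SiglecXII samples, and Vil1, whose promoter drives the recombinase, was at 7.37 to 8.14 and 7.29 to 8.10. Markers of smooth muscle were present as well, with Tagln highest at a mean of 7.94 in Control, and so were keratins of stratified squamous epithelium, which normal colonic mucosa lacks. Libraries also differed in the level of the median tested gene. It was 3.66, 3.87, 3.78 and 3.85 in Control 1 to 4, and 3.80, 3.74, 3.46 and 3.31 in SiglecXII 1 to 4, so that the median gene was lowest in SiglecXII 3 and SiglecXII 4. Not all genes followed it, since the 6 goblet cell genes summed to 13898 and 15612 TPM in these samples and to 9790 to 11733 TPM in the other 6. That sum does not speak for each of the 6 genes. Muc2 was at 66.8 and 71.7 TPM in SiglecXII 3 and 4 and was lower only in Control 1, at 45.3 TPM. Dcn, a proteoglycan of fibroblasts, was highest in SiglecXII 4, at 57.1 TPM, while Dpt of the same list was lowest there. The part of these genes in the results was not tested. Of 13164 genes tested, 78.1% had a lower mean in SiglecXII, and the median difference over all of them was -0.15. Each result below is therefore read beside that shift.

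In Control colon the members spanned an 18.9-fold range of mean TPM. Lrig1 was the most abundant at 32.8 ± 4.61 TPM (SD, n = 4), followed by Smoc2 at 23.3 ± 4.15, Sox9 at 21.5 ± 5.49, Ephb2 at 18.7 ± 3.49, Rnf43 at 15.4 ± 1.67, Axin2 at 14.5 ± 1.93, Ascl2 at 12.2 ± 3.39 and Cd44 at 9.52 ± 4.22. Znrf3 at 2.99 ± 0.627 TPM and Lgr5 at 1.73 ± 0.231 TPM were the least abundant. Only 3 of the 9 neighbouring pairs in this order were apart in every Control sample without overlap, namely Lrig1 above Smoc2, Cd44 above Znrf3, and Znrf3 above Lgr5. From Smoc2 down to Cd44 each gene overlapped with the next in its range over the Control samples. The 10 means stood in the same order in SiglecXII samples, from Lrig1 at 30.4 ± 8.46 TPM to Lgr5 at 0.984 ± 0.272 TPM. Lgr5 stood at the 5.07th percentile of the mean levels of all tested genes, and Lrig1 at the 73.5th.

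**Figure D1:**
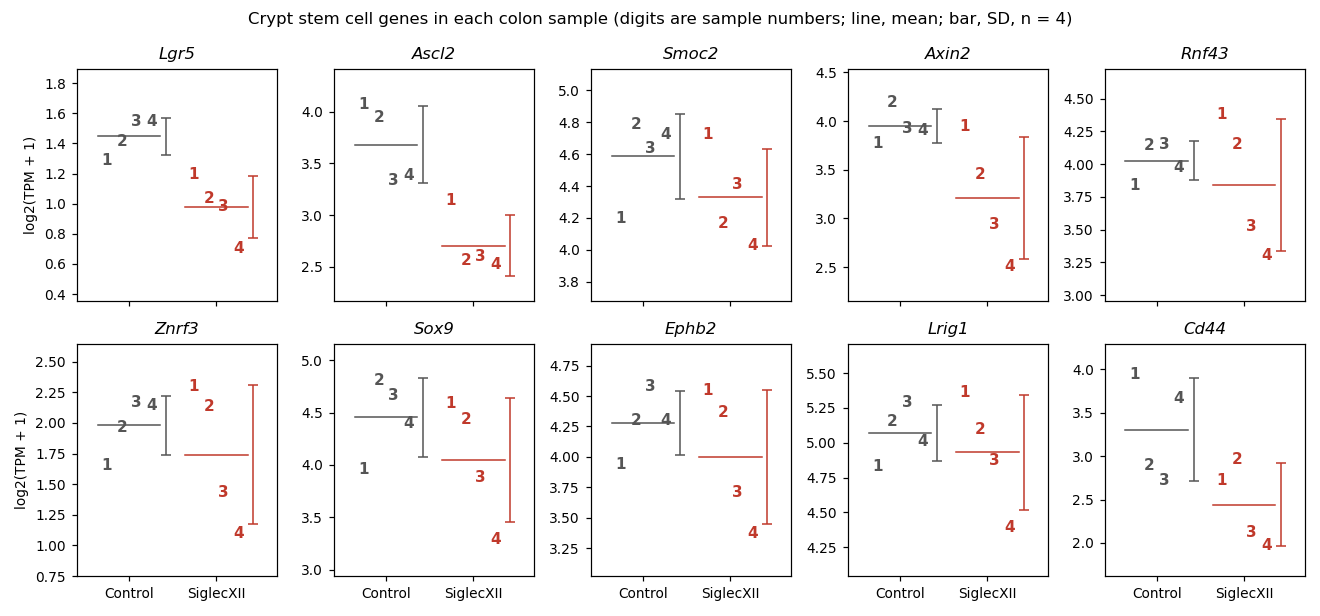
Level of each crypt stem cell gene in log2(TPM + 1), with Control samples in grey and SiglecXII samples in red; digits give the sample number, lines the mean and bars the SD of 4 samples, and the vertical scale differs between panels. Lgr5 and Ascl2 have no overlap between the groups, and SiglecXII 4 is the lowest of the 8 samples in all 10 panels.

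All 10 members had a lower mean in SiglecXII than in Control (8 of them after centring on the median gene or quantile normalization, when Rnf43 and Lrig1 did not), and none passed the test across all genes. The adjusted p of limma with the Benjamini-Hochberg method was 0.515 to 0.741 over the members, and 5 of 13164 genes (0.038%) were called at an adjusted p of 0.05 or less, all of them higher in SiglecXII. At an unadjusted limma p of 0.05 or less, 4 of the 10 members were lower (Lgr5, Ascl2, Axin2 and Cd44) and none was higher, where 7.67% of all tested genes were lower and 1.19% higher. This count was 2 after centring each sample on its median gene, when Lgr5 and Cd44 did not reach the threshold, and 3 after quantile normalization, when Cd44 did not. The 7.67% and 1.19% are for all 8 samples without either adjustment. The shares of all tested genes under the alternatives are not given here, so counts of members under them have no such comparison. The groups did not overlap for 2 members, both lower in SiglecXII, where 4.06% of all tested genes were lower without overlap and 1.05% were higher. The median difference of the members was -0.34. It was -0.13 after the same centring and -0.15 after quantile normalization, while centring moved the median of all genes to 0.06 and quantile normalization to 0.02. In bulk RNA, fewer cells of a type and less RNA per cell cannot be told apart.

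Lgr5, the R-spondin receptor that marks crypt base stem cells (chr10:115450311-115587780, GRCm38, minus strand), was at 1.29, 1.41, 1.55 and 1.55 in Control 1 to 4, and at 1.19, 1.04, 0.98 and 0.70 in SiglecXII 1 to 4. Every SiglecXII sample lay below every Control sample, and the gap between SiglecXII 1 and Control 1 was small beside the range within either group. The difference was -0.47 (SE 0.14, 95% interval -0.80 to -0.14), with p = 0.0286 in a two-sided exact permutation test, the smallest that the 70 labelings can give, and an adjusted p of 0.515 in limma. In TPM the Control samples ran from 1.44 to 1.92 and the SiglecXII samples from 0.629 to 1.28, low levels whose read depth is unknown. The difference was -0.26 after centring on the median gene, -0.33 without SiglecXII 3 and 4, and -0.79 with a pseudocount of 0.1 in place of 1.

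Ascl2, the basic helix-loop-helix factor of the same stem cells (chr7:142966829-142969264, minus strand), was at 4.07, 3.94, 3.33 and 3.39 in Control 1 to 4, and at 3.14, 2.56, 2.60 and 2.52 in SiglecXII 1 to 4. The Control samples formed a higher and a lower pair, and SiglecXII 1 stood above the other 3 SiglecXII samples but below all Control samples. Its difference of -0.98 (SE 0.22, 95% interval -1.47 to -0.48) was the most negative of the 10, with a two-sided exact permutation p of 0.0286, and its unadjusted limma p had rank 20 among the 13164 tested genes. The adjusted limma p was 0.515, and 0.122 to 0.991 over the alternatives. Unlike most members, Ascl2 was as low in SiglecXII 2 as in SiglecXII 3 and 4, and its difference was -0.83 without those last samples and -0.76 after centring on the median gene.

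Smoc2, a secreted matrix protein enriched in Lgr5-expressing cells, was at 4.19, 4.79, 4.64 and 4.72 in Control 1 to 4 and at 4.72, 4.16, 4.41 and 4.03 in SiglecXII 1 to 4. The groups overlapped widely, since SiglecXII 1 was level with the higher Control samples and Control 1 lay among the SiglecXII samples. The difference was -0.25 with a 95% interval of -0.67 to 0.17, so a small rise and, on this scale only, a fall larger than that of Lgr5 were both within it. It was -0.04 after centring on the median gene, -0.08 after quantile normalization, -0.14 without SiglecXII 3 and 4, and -0.44 with array weights, the only one of these in which Smoc2 reached an unadjusted limma p of 0.05 or less.

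Axin2, a scaffold of the complex that degrades beta-catenin and a direct Wnt target (chr11:108920349-108950783, plus strand), was at 3.77, 4.19, 3.93 and 3.90 in Control 1 to 4 and at 3.94, 3.45, 2.94 and 2.50 in SiglecXII 1 to 4. The Control samples were close together, SiglecXII 1 lay within them, and the other 3 SiglecXII samples lay below all of them. The difference was -0.74 (SE 0.28, 95% interval -1.38 to -0.11), with p = 0.114 in the two-sided exact permutation test and an adjusted limma p of 0.515. It was -0.25 without SiglecXII 3 and 4, -0.53 after centring on the median gene and -0.53 after quantile normalization.

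Rnf43 and Znrf3 encode membrane ubiquitin ligases that remove Frizzled receptors from the cell surface. Rnf43 was at 3.84, 4.14, 4.15 and 3.98 in Control 1 to 4 and at 4.38, 4.15, 3.53 and 3.30 in SiglecXII 1 to 4. Znrf3 was at 1.65, 1.96, 2.17 and 2.14 in Control 1 to 4 and at 2.30, 2.14, 1.43 and 1.10 in SiglecXII 1 to 4. For both genes SiglecXII 1 was the highest of the 8 samples and SiglecXII 4 the lowest, so that the SiglecXII samples lay on both sides of the Control range. The differences were -0.18 (95% interval -0.71 to 0.34) for Rnf43 and -0.24 (-0.86 to 0.38) for Znrf3. They turned to 0.24 for each gene without SiglecXII 3 and 4, and that of Rnf43 to 0.03 after centring on the median gene and 0.02 after quantile normalization.

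Sox9, a transcription factor of progenitors at the crypt base, was at 3.95, 4.81, 4.67 and 4.39 in Control 1 to 4 and at 4.59, 4.44, 3.88 and 3.29 in SiglecXII 1 to 4. Ephb2, the receptor that holds cells low in the crypt, was at 3.94, 4.30, 4.58 and 4.30 and at 4.55, 4.36, 3.71 and 3.37. Lrig1 was at 4.83, 5.15, 5.29 and 5.01 and at 5.36, 5.10, 4.87 and 4.39. In these 3 genes SiglecXII 1 and 2 lay within or just above the Control range and SiglecXII 3 and 4 near or below its lower end, with Control 1 the lowest of the Control samples. The differences were -0.41 (95% interval -1.08 to 0.27), -0.28 (-0.88 to 0.31) and -0.14 (-0.60 to 0.32), and without SiglecXII 3 and 4 they were 0.06, 0.17 and 0.16. The difference of Lrig1 was also 0.07 after centring on the median gene, 0.01 after quantile normalization and 0.04 without SiglecXII 4.

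Cd44, a hyaluronan receptor and Wnt target of crypt cells that basal cells of squamous epithelium and leukocytes also express (chr2:102811141-102901665, minus strand), was at 3.94, 2.89, 2.72 and 3.66 in Control 1 to 4 and at 2.72, 2.96, 2.12 and 1.97 in SiglecXII 1 to 4. Control 1 and Control 4 stood apart from the other 6 samples, and SiglecXII 1 and 2 lay at the level of Control 2 and 3. The difference was -0.86 (SE 0.33, 95% interval -1.60 to -0.13), with p = 0.114 in the two-sided exact permutation test and an adjusted limma p of 0.515. It was -0.47 without SiglecXII 3 and 4 and -0.33 with array weights. Cd44 did not reach an unadjusted limma p of 0.05 in either of these, nor without Control 1 (-0.65), Control 4 (-0.74), SiglecXII 3 (-0.76) or SiglecXII 4 (-0.71).

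The samples highest in Cd44 were also those highest in genes of stratified squamous epithelium. That list (Krt5, Krt14, Krt13, Krt4, Krt6a, Trp63, Dsg3 and Sprr1a) was drawn up after its values were seen and was not put to a test. All 8 genes were detected in every sample, none is at 0, and they summed to 23713, 1783, 1310 and 11295 TPM in Control 1 to 4 and to 1512, 5671, 722 and 810 TPM in SiglecXII 1 to 4. Control 1, Control 4 and SiglecXII 2 held the highest sums and also the 3 highest Cd44 levels, and SiglecXII 3 and 4 the lowest of both. Krt13, a keratin of stratified mucosa, had the highest mean log2 level in Control, ranging from 8.59 to 12.46, and Trp63, the transcription factor of basal squamous cells, was at 1.28 to 3.79 over the 8 samples. Without Control 1, Control 4 and SiglecXII 2, a choice made after these values were seen, the difference of Cd44 was -0.54, that of Lgr5 -0.52, that of Ascl2 -0.89 and that of Axin2 -0.93. That run set Control 2 and 3 against SiglecXII 1, 3 and 4. SiglecXII 3 and 4, where the median gene was lowest, thus weighed more in it than in the full set. The leukocyte list summed to 23.8, 6.69, 5.79 and 13.1 TPM in Control 1 to 4 and to 3.06 to 4.63 TPM in the SiglecXII samples, again highest in Control 1 and Control 4, with Jchain its most abundant gene in Control and no gene at 0 in all samples. The part of squamous tissue and of leukocytes in the Cd44 difference was not tested.

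**Figure D2:**
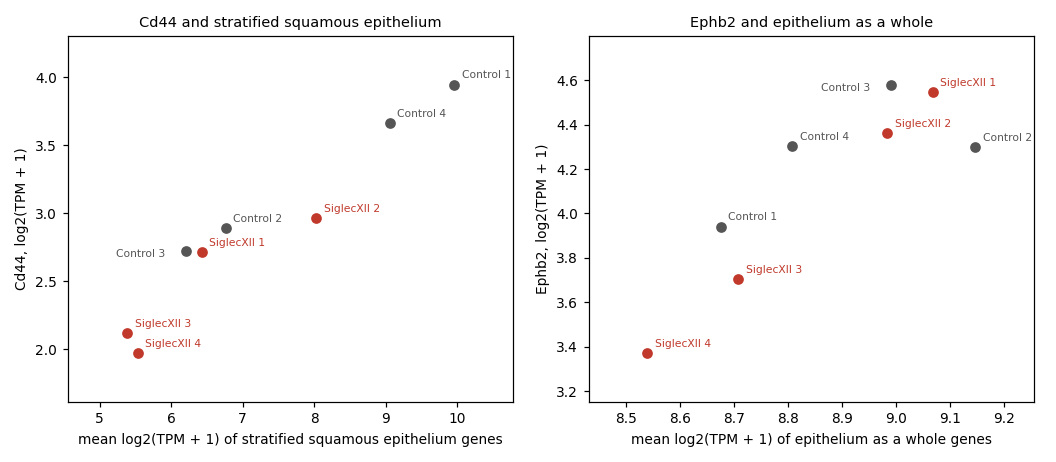
Left, Cd44 against the mean of 8 stratified squamous epithelium genes; right, Ephb2 against the mean of 8 epithelium genes; each point is a sample (grey, Control; red, SiglecXII) and all axes are log2(TPM + 1). Cd44 runs from 1.97 in SiglecXII 4 to 3.94 in Control 1, in nearly the order of the squamous genes, while Ephb2 runs from 3.37 to 4.58 and is lowest where the epithelium mean is lowest.

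Without SiglecXII 3 and 4, a choice made after these libraries were seen to stand apart, 5 of the 10 members had a lower mean in SiglecXII instead of 10, the members' median difference was -0.04, and the median of all tested genes was 0.0031. Ascl2 was then the only member with an unadjusted limma p of 0.05 or less, and the 5 members that turned to a higher mean were Rnf43, Znrf3, Sox9, Ephb2 and Lrig1. Leaving out SiglecXII 4 alone gave a median of -0.15 and 2 members at that threshold, Lgr5 and Ascl2. The same 2 members reached it without SiglecXII 3. Without Control 1, Control 4 and SiglecXII 2 all 10 members were lower, and their median was -0.53 beside -0.24 over all tested genes. Lgr5 and Ascl2 reached the threshold in that run. It held only Control 2 and 3 against SiglecXII 1, 3 and 4, so SiglecXII 3 and 4 weighed more in it. Lgr5, Ascl2, Smoc2, Axin2 and Cd44 kept a negative difference in every alternative run.

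**Figure D3:**
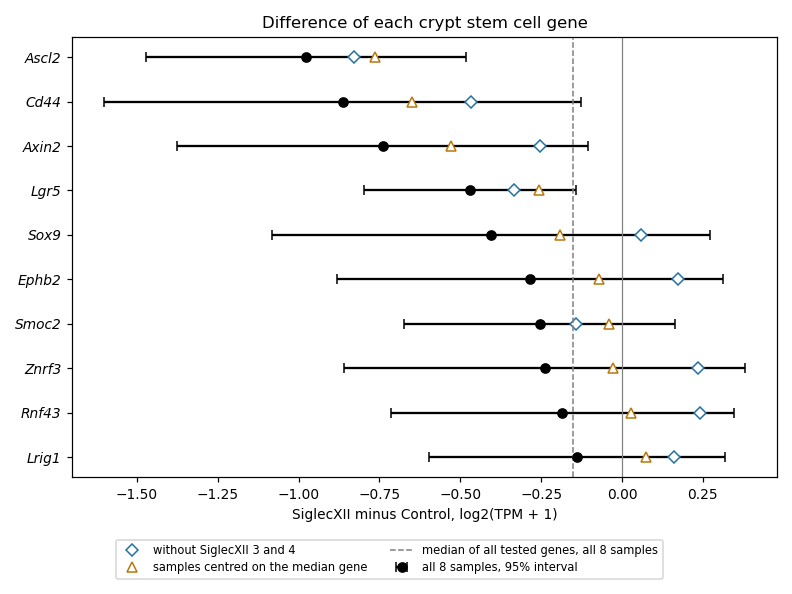
Difference of each crypt stem cell gene, SiglecXII minus Control, in log2(TPM + 1); filled circles with bars are all 8 samples with the 95% interval of limma, open diamonds leave out SiglecXII 3 and 4, open triangles centre each sample on its median gene, and the dashed line is the median of all tested genes (-0.15). The intervals of Ascl2, Cd44, Axin2 and Lgr5 lie below 0, and Rnf43, Znrf3, Sox9, Ephb2 and Lrig1 move above 0 without SiglecXII 3 and 4.

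Promoter windows of 300 bases (250 before to 50 after the start) from RefSeq, GRCm38.p6, were matched to 6 of the 10 members, with 7 windows since Rnf43 has a pair of starts. The letters ATCAAAG or their reverse complement CTTTGAT, a form of the TCF/LEF motif, occurred in 0 of these 7 windows and in 3.73% of 32851 promoter windows. The shorter CAAAG or CTTTG, which lies within that motif, occurred only in the Cd44 window among the 7, and in 53.9% of all. The windows of the 3 matched members with an unadjusted limma p of 0.05 or less are shown 5′ to 3′ on the gene's strand, with CAAAG in capitals. They lie at chr7:142969215-142969514 (Ascl2, minus strand), chr11:108920099-108920398 (Axin2, plus strand) and chr2:102901616-102901915 (Cd44, minus strand).
Ascl2: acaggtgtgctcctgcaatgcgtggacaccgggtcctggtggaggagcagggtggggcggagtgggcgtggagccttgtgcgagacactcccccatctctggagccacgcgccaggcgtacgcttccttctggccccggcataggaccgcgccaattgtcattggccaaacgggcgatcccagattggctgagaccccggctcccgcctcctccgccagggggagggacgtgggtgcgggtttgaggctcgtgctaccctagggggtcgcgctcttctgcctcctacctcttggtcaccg
Axin2: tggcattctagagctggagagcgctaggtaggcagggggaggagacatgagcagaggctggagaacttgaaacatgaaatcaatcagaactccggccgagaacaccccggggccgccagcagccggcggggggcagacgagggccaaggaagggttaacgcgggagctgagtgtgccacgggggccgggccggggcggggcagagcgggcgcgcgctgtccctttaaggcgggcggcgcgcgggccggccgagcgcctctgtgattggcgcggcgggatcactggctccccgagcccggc
Cd44: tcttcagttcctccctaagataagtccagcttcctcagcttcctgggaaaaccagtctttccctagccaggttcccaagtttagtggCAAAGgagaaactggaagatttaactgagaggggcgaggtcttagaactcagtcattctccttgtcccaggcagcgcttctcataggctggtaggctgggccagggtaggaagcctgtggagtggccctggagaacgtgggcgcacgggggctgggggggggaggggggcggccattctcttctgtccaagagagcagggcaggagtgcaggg
The Ascl2 and Axin2 windows were rich in G and C, at 67% and 70% with 23 and 31 CG pairs, against 58% and 6 CG pairs in Cd44 and medians of 52.7% and 7 over all windows. Ephb2 and Lrig1, which moved closely with Rnf43, had 68.7% and 73.0%, while the Rnf43 windows had 46.7% and 44.3%. A window without these letters says nothing about binding of the factor elsewhere.

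All 45 pairs had a positive Pearson r (median 0.749, range 0.185 to 0.985), and 21 had an adjusted p of 0.05 or less by two-sided exact permutation over all pairings with Benjamini-Hochberg adjustment over the 45 pairs; by Spearman's rho 8 did. Over all pairs of the 13164 tested genes, as a description, the median r was 0.322, 69.8% were positive and 18.4% had an r at or above the members' median. After centring on the median gene 1 of the 45 pairs had an adjusted exact p of 0.05 or less and 33 were positive, with a median r of 0.324. Over all pairs of tested genes the median r after this centring was 0.0382, 52.4% were positive and 32.1% were at or above the members' median. Rnf43, Znrf3, Sox9, Ephb2 and Lrig1 accounted for 10 of the 21, with r of 0.914 to 0.985, rho of 0.714 to 0.952 and adjusted exact p of 0.0045 to 0.0172. These 5 genes were not defined as a group before their values were seen, so the count for them is a description and no test. The share of all pairs of tested genes past this threshold, or with an r as high, is not given here. The counts therefore do not show that a high r is particular to these genes. The closest pair was Znrf3 and Ephb2 (r = 0.985, exact permutation p = 0.000149, adjusted 0.00446; rho = 0.952, exact p = 0.00114). Its r was 0.926 without SiglecXII 3 and 4, the samples farthest from the median, and 0.957 after centring on the median gene. Over the 10 pairs of these 5 genes, r was 0.650 to 0.948 without SiglecXII 3 and 4, 0.693 to 0.957 after that centring, and 0.911 to 0.985 on deviations from the group means.

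Pairs with other members had lower r over the 8 samples, but some were as high on deviations from the group means. On these deviations Axin2 had r of 0.90 to 0.967 with Rnf43, Znrf3, Sox9, Ephb2 and Lrig1, and Lgr5 had 0.828 to 0.922 with the same genes, so on this measure a high r is not particular to pairs among them. Other measures gave lower values. With these genes Axin2 had r of 0.0081 to 0.521 without SiglecXII 3 and 4, and 0.324 to 0.756 after centring on the median gene. Lgr5 had 0.0742 to 0.419 with them without Control 3 and SiglecXII 4, and -0.207 to 0.189 after that centring. Lgr5 and Axin2 had r = 0.894 (exact permutation p = 0.00233, adjusted 0.0105) and rho = 0.738 (exact p = 0.0458), with r = 0.802 without Control 3 and SiglecXII 4 and 0.497 after centring on the median gene. Lgr5 and Ascl2, the stem cell markers without overlap between groups, had r = 0.731 (exact permutation p = 0.0435, adjusted 0.0783) and rho = 0.738 (exact p = 0.0458); r was 0.735 without Control 3 and SiglecXII 4 but 0.0050 once group means were taken off, so within the groups no common variation was seen. Axin2 and Rnf43, both targets of the same pathway, had r = 0.866 (exact permutation p = 0.0094, adjusted 0.0325) and rho = 0.667 (exact p = 0.0831), and r was 0.162 without SiglecXII 3 and 4, on which the relation rests. Cd44 had r of 0.259 to 0.457 with Rnf43, Znrf3, Sox9, Ephb2 and Lrig1, none with an adjusted exact p of 0.05 or less, and its r with Rnf43 was -0.905 without SiglecXII 3 and 4.

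The counts of pairs differed between the alternatives. After quantile normalization 1 of the 45 pairs had an adjusted exact p of 0.05 or less, as after centring on the median gene, and after centring on the epithelium list 3 did. On deviations from the group means, permuted within the groups, 16 did. The count was 0 without SiglecXII 4, 10 without SiglecXII 3, 12 without Control 3 or Control 4, 13 without SiglecXII 1, 17 without Control 2, 22 without Control 1 and 25 without SiglecXII 2.

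**Figure D4:**
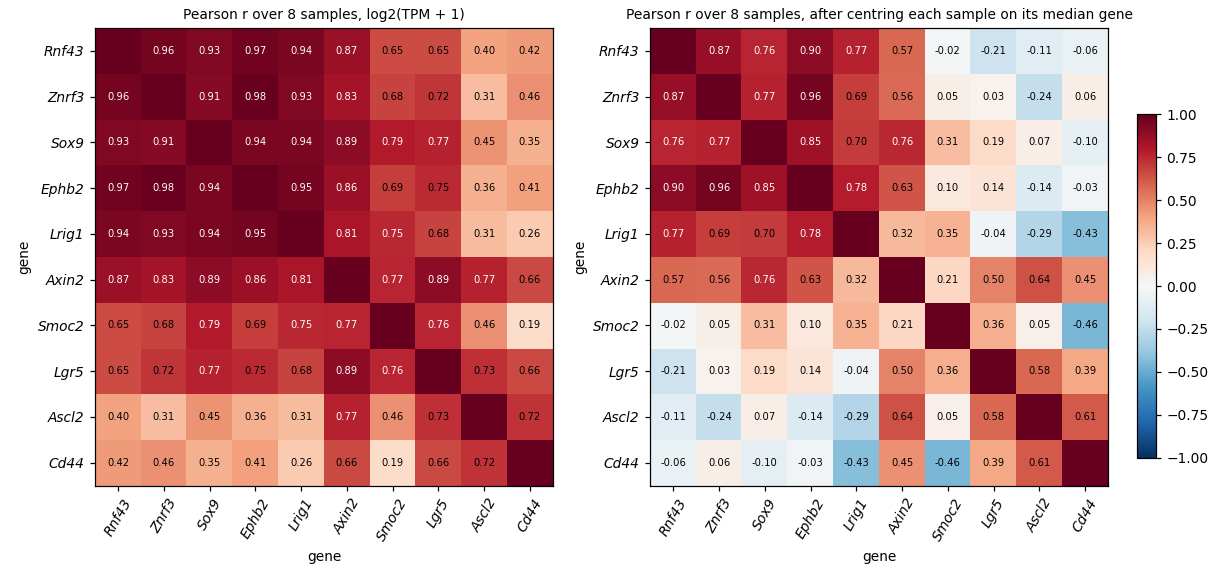
Pearson r between the 10 crypt stem cell genes over 8 samples, on log2(TPM + 1) at left and after centring each sample on its median gene at right; rows and columns are genes and the colour scale runs from -1 to 1. The block of Rnf43, Znrf3, Sox9, Ephb2 and Lrig1 is at 0.91 or more at left and keeps 0.69 or more at right, whereas Cd44 and Ascl2 reach -0.43 and -0.29 with Lrig1 at right.

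Each member was also compared with the mean of 4 lists (epithelium as a whole, smooth muscle, fibroblasts and proliferation), 40 relations in all, of which 13 had an adjusted exact permutation p of 0.05 or less by Pearson r and 2 by Spearman rho. The share of all tested genes past this threshold with the same lists is not given here. Of all pairs of tested genes 69.8% had a positive r, which is not a like measure. Whether the 13 relations set the members apart from other genes therefore cannot be told. Sox9 followed the epithelium list most closely (r = 0.947, exact p = 0.000198, adjusted 0.00792; rho = 0.952, exact p = 0.00114) and kept r = 0.916 without Control 2 and SiglecXII 4. Lrig1 had r = 0.90 with the same list (exact permutation p = 0.00146, adjusted 0.0146; rho = 0.929, exact p = 0.00223) and 0.957 without those samples. After centring on the median gene r with this list was 0.308 for Sox9, 0.550 for Lrig1, 0.358 for Rnf43, 0.184 for Ephb2 and 0.0596 for Znrf3. Before that centring Ephb2, Rnf43 and Znrf3 were past the threshold too, with r of 0.831 to 0.903, and Lgr5, Ascl2, Smoc2, Axin2 and Cd44 were not.

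Lgr5 instead was closest to the smooth muscle list (r = 0.893, exact permutation p = 0.00228, adjusted 0.0183; rho = 0.905, exact p = 0.00456), with r = 0.739 without Control 3 and SiglecXII 4 and 0.776 after centring on the median gene. That list summed to 884, 649, 1034 and 839 TPM in Control 1 to 4 and to 661, 584, 668 and 312 TPM in SiglecXII 1 to 4, and all 8 of its genes were detected. Its part in the Lgr5 difference was not tested. Proliferation genes were past the threshold with 7 members, Sox9 most closely (r = 0.946, exact permutation p = 0.00112, adjusted 0.0146; rho = 0.857, exact p = 0.0107; 0.850 without Control 3 and SiglecXII 4), and not with Ascl2, Rnf43 or Cd44. No relation with fibroblast genes was past it. After centring on the median gene none of the 40 relations was past the threshold, and without Control 3, SiglecXII 3 or SiglecXII 4 the count was 3, 5 and 0.

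The wider pathway gave no calls. Of 54 genes in the 6 lists of Wnt targets, R-spondins and receptors, destruction complex, reserve stem cell genes, ephrins and proliferation, 40 were tested and none had an adjusted limma p of 0.05 or less in either direction; 9 of the 40 were lower at an unadjusted limma p of 0.05 or less, and none was higher, where 7.67% of all tested genes were lower and 1.19% higher. Their median difference was -0.30, beside -0.15 over all tested genes.

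Among other Wnt targets, 6 of 12 were tested, all with a lower mean (median -0.63), 4 of the 6 at an unadjusted limma p of 0.05 or less, where 78.1% of all tested genes had a lower mean and 7.67% were lower at that p. Myc, the growth-promoting transcription factor, was at 5.02, 4.88, 4.25 and 4.67 in Control 1 to 4 and at 4.06, 4.10, 3.49 and 3.25 in SiglecXII 1 to 4. As with Lgr5 and Ascl2, no SiglecXII sample reached the lowest Control sample. Of the 40 tested pathway genes 2, Myc and Pcna, were lower without overlap, beside 4.06% of all tested genes. The difference of Myc was -0.98 (95% interval -1.52 to -0.45), with a two-sided exact permutation p of 0.0286 and an adjusted limma p of 0.515. Cdca7, the most abundant of the list, differed by -0.60 (-1.08 to -0.12) and Bambi, the least negative, by -0.19 (-0.48 to 0.10). Tnfrsf19, Nkd1, Notum, Lef1, Sp5 and Apcdd1 were too low to test.

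R-spondins act on Lgr receptors from the stroma, and Rspo1, Rspo2, Rspo3, Rspo4 and Lgr6 were too low to test. Lgr4, the related receptor found along the crypt, was far more abundant than Lgr5, at 83.7 TPM in Control, and differed by -0.04 (-0.44 to 0.36). Fzd5 differed by 0.00 (-0.59 to 0.60) and Lrp5 by -0.32 (-0.96 to 0.31), and the median of the 5 tested genes was -0.22. In the destruction complex list all 8 genes were tested, with a median of -0.30, from Bcl9 at -0.46 to Axin1 at -0.18; Ctnnb1, which encodes beta-catenin, was the most abundant and differed by -0.38 (-0.78 to 0.02).

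Of the reserve and regenerative stem cell genes 7 of 10 were tested, with a median of -0.22, and Olfm4, Msi1 and Tert were too low. Anxa1, the most abundant of the list at 824 TPM in Control, differed by -0.88 (-1.72 to -0.04) and was highest in Control 1 and Control 4, which also held the highest sums of squamous genes. The part of squamous tissue in it was not tested. Bmi1 differed by 0.02 (-0.39 to 0.43).

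Deep crypt secretory cells, which lie between stem cells in the colon, had a median of -0.17 over 6 genes, from Cd24a at -0.30 to Agr2 at 0.13, which was also the most abundant. The ephrins Efnb1 and Efnb2, ligands of Ephb2 on cells higher in the crypt, both differed by -0.10. All 12 proliferation genes had a lower mean in SiglecXII (median -0.55), 3 of the 12 at an unadjusted limma p of 0.05 or less, again beside 7.67% of all tested genes. Mcm3 differed by -0.80 (-1.57 to -0.03), Birc5 by -0.12 (-0.99 to 0.75) and Pcna, the most abundant, by -0.28 (-0.58 to 0.02). Mki67, a marker of cycling cells that was chosen after its values were seen, was at 2.41 in Control 1, at 4.07 to 4.48 in the other Control samples and at 2.31 to 3.98 in SiglecXII, so a single Control sample was nearly as low as SiglecXII 4.

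Genes of differentiated cells lay on both sides of 0. The median difference was 0.02 over 7 colonocyte genes, from Slc26a3 at -0.20 to Guca2a at 0.10, with Car1 the most abundant at 0.02. Over 6 goblet cell genes it was 0.10, from Muc2 at -0.18 to Spink4 at 0.43 (95% interval 0.07 to 0.78, adjusted limma p 0.515), with Zg16 the most abundant at 0.31. Zg16 was at 12.68 and 12.89 and Tff3, chosen after its values were seen, at 11.87 and 12.13 in SiglecXII 3 and 4, the highest of the 8 samples for both genes. Not every goblet cell gene was high there, since Muc2 was at 6.08 and 6.18 and was lower only in Control 1, at 5.53. Over the 8 genes of epithelium as a whole the median difference was -0.10, from Cdx2 at -0.22 to Krt8, the most abundant, at 0.07. None of these genes had an adjusted limma p of 0.05 or less.

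Of the lists for other tissue components, smooth muscle had a median of -0.69 over 8 genes, 5 of the 8 lower at an unadjusted limma p of 0.05 or less (7.67% of all tested genes), from Myh11 at -0.78 to Tagln at -0.53. Fibroblast genes had a median of -0.13 over 6 tested genes, from Dpt at -0.48 to Dcn at -0.01, and Pdgfra was too low. For neurons, glia and pacemaker cells the median was -0.24 over Uchl1 at -0.37 and Ano1 at -0.11, where Ano1, also an epithelial channel, was the most abundant; the other 5 genes of the list, Elavl4, S100b and Sox10 among them, were too low. Leukocytes had a median of -0.81 over Jchain at -1.15 and Cd68 at -0.47, with Ptprc, Cd3e, Cd79a, Csf1r and Itgam too low, and of the endothelial genes only Pecam1 was tested, at -0.59 (95% interval -0.87 to -0.31, adjusted limma p 0.515), with Cdh5, Kdr, Tek and Emcn too low.

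**Figure D5:**
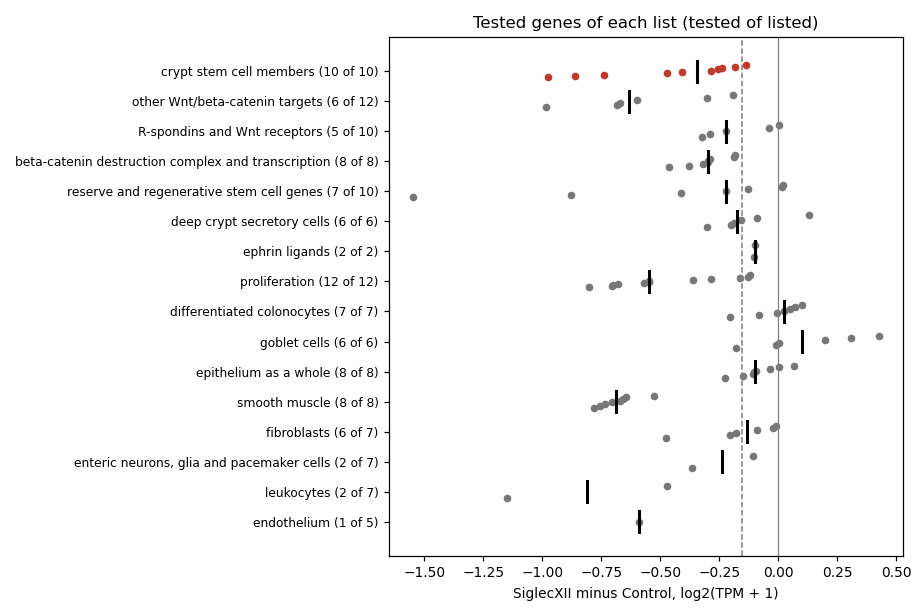
Differences, SiglecXII minus Control, in log2(TPM + 1) for each tested gene of the lists; points are genes, black bars list medians, the dashed line the median of all tested genes (-0.15), and the digits after each name give tested and listed genes. The crypt stem cell genes have a median of -0.34, between proliferation at -0.55 and epithelium as a whole at -0.10.

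The genes with the most similar pattern were sought among 9403 tested genes with a mean of at least 5 TPM, by Pearson r over the 8 samples after each group's mean was taken off, as a description with no test. For Lgr5 they were Emc10 (r = 0.983), Tmem241 (0.978), Rmi1 (0.975), Plod3 (0.975) and Sh3bgrl2 (0.975), and 409 genes had an r over 0.9. For the mean r to the 10 members they were Hnrnpl (0.806), Stam (0.806), Zbtb8os (0.805), Usp10 (0.805) and Brd3 (0.805). These r values are so close that the order among the genes carries no information, and all 10 genes had SiglecXII 4 as their lowest sample.

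Reads that members share with other genes could not be followed in TPM values. Windows of 31 bases from the GENCODE transcripts of each member were sought in transcripts of all other genes on both strands. None of those of Ascl2 and Rnf43 were shared, and 0.0574% (Cd44) to 2.71% (Axin2) were shared for the others. Axin2 is overlapped by Gm11670, Lgr5 by A930009A15Rik, Smoc2 by 4930474M22Rik and Cd44 by Gm23731, each on the opposite strand. Rnf43 is overlapped by Gm25968 and 1110028F11Rik and Lrig1 by Slc25a26 and Mir7041, while Ascl2, Znrf3, Sox9 and Ephb2 have no overlapping gene. Whether strand was used in the estimation is not given in the sources used here.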

How the data were processed

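RNA from distal colon was sequenced as paired reads of 100 bp. The labels name a stranded total RNA kit, the study's methods an mRNA kit. Per the labels' processing notes the authors used kallisto 0.45.0 with GRCm38, while the methods name another version and a human reference. The deposited values are log2(TPM + 1) per gene, with no adjustment between samples. Of 52143 gene IDs, 51250 matched GENCODE M21 (GRCm38). Sequencing depth is unknown from TPM. Genes that reached 1 TPM in 4 or more samples were fitted in limma 3.58.1 (R version 4.3.3; a linear model with moderated variances that follow a trend on mean level, two-sided, Benjamini-Hochberg over all tested genes, 95% intervals), without a block; the fit was tested on simulated data. The study's DESeq2 needs counts and was not run. Single values were compared by exact permutation of 70 labelings, correlations over all 40320 pairings of 8 samples. Python 3.11.15, NumPy 2.4.6, pandas 2.3.3 and matplotlib 3.10.9 were used.

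The 10 members and the lists were chosen with earlier results of these data known. Genes named are the members, list genes called at an adjusted p of 0.05 or less, of each list those with the largest positive and negative differences, its most abundant gene and those too low to test, and the 5 genes most like Lgr5 and the 5 most like all members; Mki67, Tff3, Epcam, Vil1 and the squamous list were chosen after their values were seen. Some genes that this rule names are not reported here. Alternatives covered quantile normalization, centring on the median gene or the epithelium list, a filter at 5 TPM, no filter, a smaller pseudocount (0.1), array weights, sample number as a block, each sample left out, and, chosen after seeing the data, 2 sets of libraries left out.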

Additional observations from a re-analysis of the deposited data

Results flagged for a closer look

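Among 68 genes, 136 groups of 4 samples were examined for a sample far from the others, by its gap to the nearest sample divided by the range of the group. In 4 groups this exceeded the 95% critical value of Dixon's test, and chance alone gives about 1 in 20 groups. For Ascl2 the ratio was 0.874, since SiglecXII 1 was at 3.14 and the other 3 SiglecXII samples at 2.52 to 2.60. For Fzd5 it was 0.923, with Control 1 at 3.62 and the other Control samples at 4.59 to 4.67. For Spink4 it was 0.869, with Control 1 at 10.15 and the others at 10.50 to 10.55. For Birc5 it was 0.836, with Control 1 at 4.48 and the others at 6.03 to 6.33. The causes were not tested.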

How the results depend on the processing

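No member and no pathway gene had an adjusted limma p of 0.05 or less in any alternative run, and the members' median difference stayed negative, at -0.50 to -0.15 with each sample left out. Of 178 member differences under an alternative, 166 kept their sign and 12 reversed. Rnf43 was at 0.0183 and Lrig1 at 0.0111 after quantile normalization, 0.0282 and 0.074 after centring on the median gene, and Rnf43 at 0.0725 and Znrf3 at 0.041 with array weights. Without SiglecXII 3 and 4 the differences of Rnf43, Znrf3, Sox9, Ephb2 and Lrig1 were 0.24, 0.24, 0.0592, 0.17 and 0.16. With each sample left out Lrig1 lay between -0.28 and 0.0407. The co-variation count was 21 pairs, against 1 after quantile normalization, 1 after median centring, 3 after centring on the epithelium list and 0 to 25 with a sample left out; the count of relations with tissue lists was 13, against 0 after median centring and 0 to 14. Calls over the whole table were 5, against 18 with array weights, 3 with the stricter filter, 3 with no filter, 2 without SiglecXII 3 and 4 and 2 to 6 with a sample left out. Promoter windows with the letters searched were 0, against 1 for CAAAG alone. The causes were not tested. Lgr5 and Znrf3 were not tested under the stricter filter. Same-numbered samples did not deviate together (r of -0.20 to 0.10, and 0 of 4 Control samples closest to their own number). With 4 samples per group these values cannot tell whether the numbers pair the samples. With a replicate block 0 members, 0 pathway genes and 4 genes in all were called, and the median difference of the members was -0.34. Since depth is unknown, the counting error of low genes such as Lgr5 cannot be given.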
